A study of Zea mays with 20 samples.

Results

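Of the 39656 maize genes in the deposited count table, 42 were higher in leaves that gain KNOTTED1 activity and lower in both tassel and ear primordia that lose it. They were chosen by measured values on 3 contrasts. Each gene had a ratio of at least 1.2 in homozygous Kn1-N leaf over wild-type leaf and of at most 0.83 in kn1-e1 over sibling tassel and in kn1-e1 over sibling ear. Replicate values of the 2 groups did not overlap in any of these contrasts. Ratios were taken on mean CPM (counts scaled to the library total, times 1000000) plus 0.5. A sibling mean of at least 2 CPM was required in tassel and ear, and kn1 itself (GRMZM2G017087) was left out. The heterozygous leaf and the shoot apical meristem (SAM) libraries had no part in the choice.

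All plants were in inbred B73, and 20 libraries of messenger RNA were counted. Young leaves came from Kn1-N/Kn1-N, Kn1-N/+ and +/+ greenhouse seedlings 10 days after germination (2 libraries each), where Kn1-N is a dominant gain-of-function allele. Tassel primordia (3 libraries per genotype, pools of 10) and ear primordia (2 per genotype, pools of 6 to 8) came from field plants. SAM samples (2 per genotype, pools of 15) came from greenhouse plants at 19 days. In these 3 tissues kn1-e1/kn1-e1 homozygotes, which carry a loss-of-function allele, were set against siblings titled WT. GEO lists these controls as kn1-e1/+, while the series design names both heterozygous and wild-type plants, so the controls may carry the mutant allele too. Per the labels, mutant primordia were smaller than those of siblings: tassels measured 2 to 3 mm against 4 to 5.5 mm, and ears 4 to 5 mm against 7 to 8 mm. In tassel and ear, genotype and size therefore cannot be told apart. The SAM samples kept the youngest leaf primordia, since plants were dissected only down to P3 or P4. In such bulk samples, fewer cells of a type and less RNA per cell cannot be told apart.

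KNOTTED1 is a KNOX homeobox transcription factor. KNOX proteins keep cells of shoot meristems undifferentiated and act with partners of the BELL homeobox family. kn1 is normally silent in leaves, and dominant alleles that switch it on there disturb leaf patterning and form knots along the veins. YABBY transcription factors, the largest named group below, are known from lateral organs rather than from the meristem centre.

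Libraries held 16068246 to 20722952 counts. The kn1 transcript followed its labels. It reached 9.79 and 10.8 CPM in homozygous, 5.02 and 6.10 CPM in heterozygous, and 0.0513 and 0 CPM in wild-type leaf. It lay between 37.7 and 58.8 CPM in kn1-e1 tassels against 186 to 208 CPM in siblings, at 34.3 and 34.7 CPM in kn1-e1 ears against 126 and 135 CPM, and at 10.2 and 12 CPM in kn1-e1 SAM against 33.6 and 37.2 CPM. Of 15 photosynthesis genes (light-harvesting, photosystem and Rubisco genes; 1 was at 0 in all libraries), the summed level was 939 to 1180 CPM in the leaf libraries and 95.9 to 147 CPM in the other tissues. In ears it was 145 to 147 CPM in kn1-e1 and 105 to 109 CPM in siblings. Of 33 floral MADS-box genes (1 at 0 in all libraries), which are transcribed as flowers form, the summed level differed with genotype, although their median log2 ratio was 0.0 in tassel and -0.14 in ear. The sum was 857 to 868 CPM in kn1-e1 against 912 to 932 CPM in sibling tassels, 913 to 927 CPM against 1250 to 1280 CPM in ears, and 499 to 514 CPM against 555 to 567 CPM in the SAM. The sum over 7 inflorescence architecture genes was 324 to 352 CPM against 269 to 288 CPM in tassels and 257 to 270 CPM against 226 to 233 CPM in ears. The sum over 28 cellulose synthase and laccase genes, of which 8 were at 0 in all libraries, was 1660 to 1670 CPM in homozygous and 2200 to 2310 CPM in wild-type leaf. The part of these marker lists in the values below was not tested.

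Among the 18018 genes at the required sibling level, 8.96% met the leaf criterion, 5.34% the tassel criterion and 6.55% the ear criterion. Both primordium criteria were met by 1.57%, and all 3 criteria by 0.233%. Of the genes that passed a size and no-overlap criterion of either sign in all 3 tissues, 42 rose in leaf and fell in both primordia. The other sign patterns held 94 genes (lower in all 3), 41 (lower in leaf and tassel, higher in ear), 37 (lower in leaf, higher in both primordia), 31 (higher in all 3), 30 (higher in leaf and ear, lower in tassel), 5 (higher in leaf and tassel, lower in ear) and 4 (lower in leaf and ear, higher in tassel). The mirror pattern to that of the 42 genes was thus met by 37. These numbers describe the choice and carry no test.

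Most of the chosen differences were modest. The median ratio was 1.46 in homozygous leaf (1.21 to 3.72), 0.665 in kn1-e1 tassel (0.269 to 0.822) and 0.683 in kn1-e1 ear (0.261 to 0.811). At least a 2-fold difference was seen for 3 genes in leaf, 5 in tassel and 6 in ear. The members nearest the thresholds were GRMZM2G123714 in leaf (1.2061), GRMZM2G079080 in tassel (0.8219) and GRMZM2G116185 in ear (0.8114). Just outside lay GRMZM2G133169 in leaf (1.1997), GRMZM2G162020 in tassel (0.8302) and GRMZM2G087267 in ear (0.831), which met every other criterion. Some members rest on few leaf reads: 13 had under 100 counts summed over the homozygous leaf libraries, and 3 had 0 counts in both wild-type leaf libraries.

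The reference gene table matched 32 of the 42 IDs, and 11 had a name beyond a clone or locus number. Of these 11, 5 were YABBY genes (yabby15, yab14, yab10, yab9 and DL1). The others were the lipoxygenase gene lox11, the benzoxazinoid gene bx2, the carotenoid cleavage dioxygenase gene CCD8, bHLH35, SRS7 and the homeobox gene HB127. Lists of KNOX and BELL (8 genes without kn1), gibberellin (4), auxin (50) and floral MADS-box genes (33) held 0 members. Of these genes 8, 3, 35 and 15 stood at the required sibling level, where 0.233% of all genes were members. At that share, 0 members in lists of such size carries no information. Levels are compared only within a gene, since no transcript lengths were used.

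**Figure D1:**
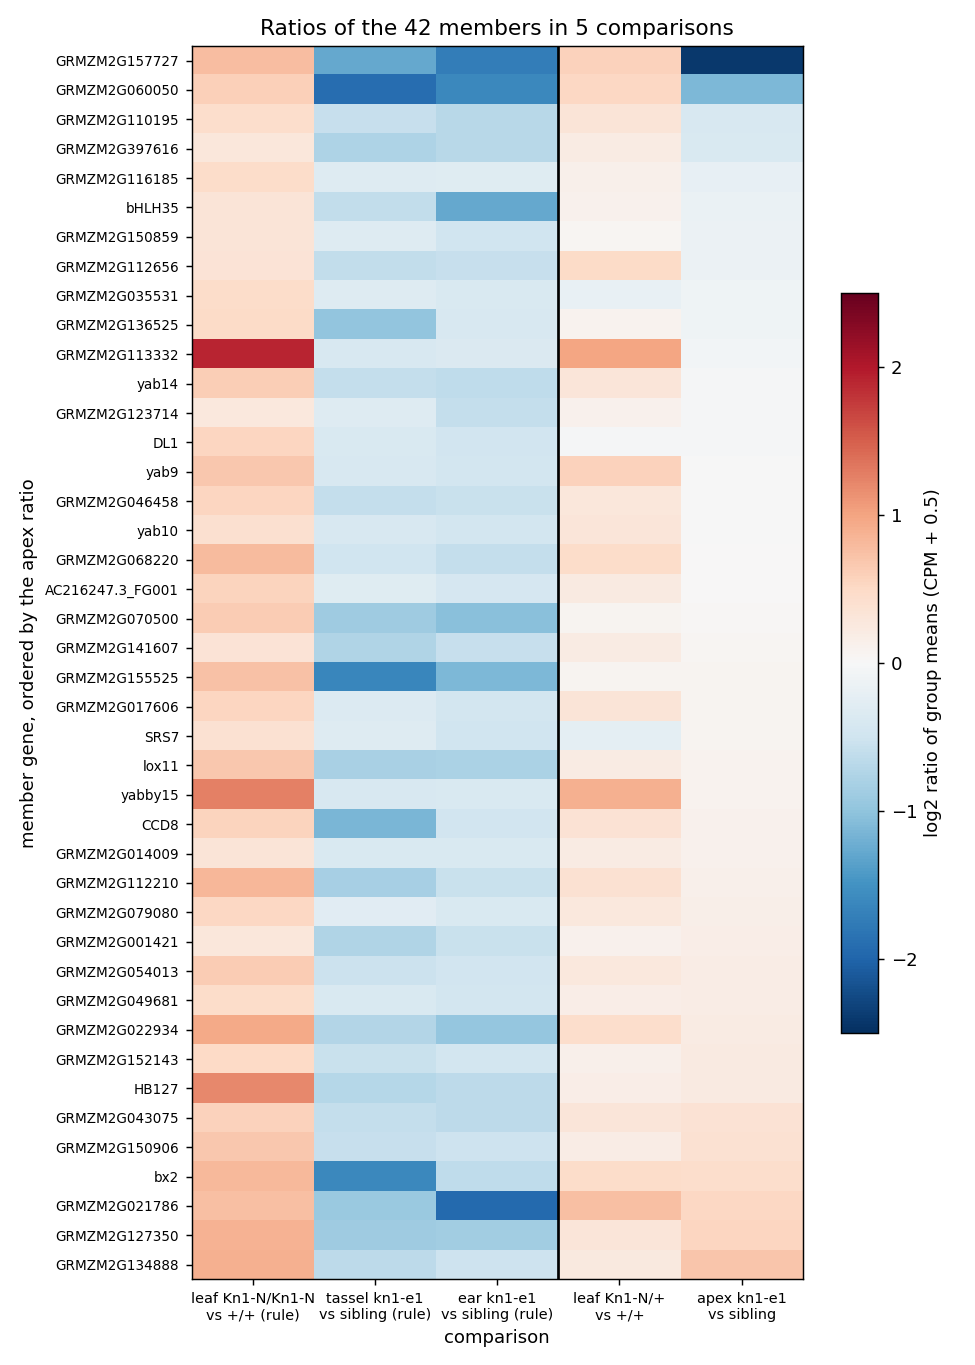
Log2 ratios of group means (CPM + 0.5) for the 42 genes (rows, ordered by the SAM ratio) in 5 comparisons (columns; "apex" is the SAM). The 3 columns left of the line chose the genes, so their colours are fixed by the rule; to the right, heterozygous leaf is mostly pale red and the SAM mostly near white, with GRMZM2G157727 the darkest blue.

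The YABBY gene yabby15 (GRMZM2G529859) had the largest leaf difference among them. Its level was 52.6 and 51.8 CPM in homozygous leaf, 39.5 and 41.1 CPM in heterozygous leaf, and 21.6 and 21.7 CPM in wild-type leaf. In tassels it was 35.1, 31.6 and 32.7 CPM in kn1-e1 and 45.8, 43.8 and 42 CPM in siblings, and in ears 76.9 and 77.3 CPM against 104 and 97.5 CPM. The leaf genotypes formed 3 separate steps, whereas in tassel and ear the mutants lay below their siblings by a smaller ratio.

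yab14 (GRMZM2G005353) stood at 32.1 and 26.7 CPM in homozygous leaf and at 16.2 and 21.8 CPM in wild type, with heterozygotes between and overlapping at 21.2 and 25.7 CPM. Tassels held 12.3, 10.3 and 11.1 CPM in kn1-e1 and 18.9, 17.9 and 14.8 CPM in siblings. Ears held 46.9 and 47.8 CPM against 76.2 and 71.9 CPM. Among wild-type and sibling tissues its highest level was that of the sibling ear, where the gap between genotypes was also widest in CPM.

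yab10 (GRMZM2G167824) moved less. Homozygous leaf had 16.7 and 14.7 CPM, heterozygous leaf 14.3 and 14.8 CPM and wild-type leaf 12 and 11.3 CPM. In tassel the groups nearly touched, with kn1-e1 at 9.39, 9.03 and 8.95 CPM and siblings at 14, 12.9 and 9.84 CPM. In ear they were further apart, at 18.7 and 19.8 CPM against 28.3 and 25 CPM.

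yab9 (GRMZM2G074543) was close to silent in every leaf library. Wild-type leaf had 0 counts in both libraries, and homozygous leaf had 5 and 6 counts (0.302 and 0.291 CPM). Primordia carried far more of it, with 10.4, 9.60 and 8.90 CPM in kn1-e1 against 14.2, 13.0 and 11.4 CPM in sibling tassel and 30.3 and 32.9 CPM against 45.0 and 41.6 CPM in ear. The leaf gain of yab9 is therefore a matter of a few reads.

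DL1 (GRMZM2G088309) is named for the rice YABBY gene DROOPING LEAF, which in rice acts in carpel identity and midrib formation. It reached 2.30 and 2.09 CPM in homozygous leaf, and 1.31 CPM in each heterozygous library, below the wild-type values of 1.38 and 1.32 CPM. Tassels held 11.5, 14.5 and 12.5 CPM in kn1-e1 and 15.6, 17.9 and 17.2 CPM in siblings, and ears 13.8 and 16.7 CPM against 21.8 and 20.7 CPM. The heterozygous libraries thus showed no gain, and the leaf levels were low beside those of primordia.

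The reference table named 9 YABBY genes in all, a list drawn up after the members were known. At the required sibling level stood 6 of them, the 5 members and YAB5 (GRMZM2G116646). The 5 members met the leaf, tassel and ear criteria because they were chosen by them. Among these 6 genes only YAB5 was free to differ, so their share carries no information beyond the choice. YAB5 met the leaf and ear criteria, and its ear mean was 9.60 CPM in kn1-e1 and 20.5 CPM in siblings. It missed in tassel, where its mean was 6.82 CPM in kn1-e1 and 6.38 CPM in siblings. The other YABBY genes fell short of the sibling level. Among them YAB3 (GRMZM2G106204) was lower in homozygous leaf (12.1 against 20.0 CPM), so the family did not move one way throughout.

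**Figure D2:**
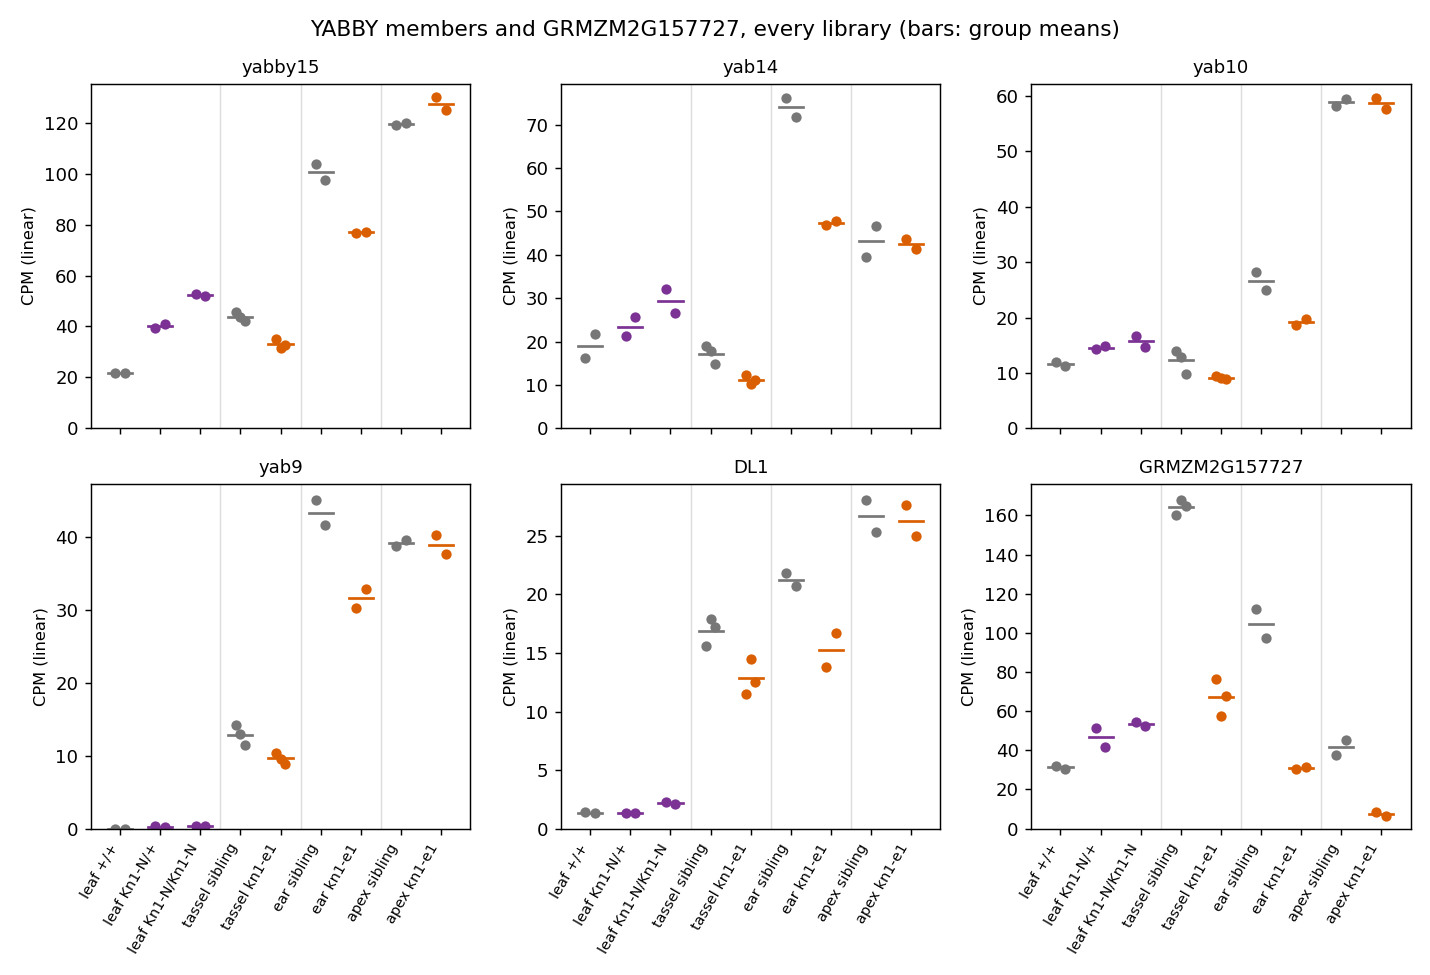
CPM (linear axis) of the 5 YABBY members and of GRMZM2G157727 in every library (points), with group means (bars); grey marks wild type or siblings, purple Kn1-N leaf and orange kn1-e1 ("apex" is the SAM). The YABBY genes overlap between genotypes or differ by little in the SAM, where GRMZM2G157727 drops from 37.7 and 45.4 to 8.43 and 6.30 CPM.

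Outside the YABBY family, lox11 (GRMZM2G009479) encodes a lipoxygenase, an enzyme that oxygenates polyunsaturated fatty acids. Its level was 217 and 210 CPM in homozygous leaf, 151 and 159 CPM in heterozygous leaf, and 121 and 146 CPM in wild type. In primordia it was far lower, at 10.0, 8.01 and 7.88 CPM in kn1-e1 against 16.6, 16.4 and 13.7 CPM in sibling tassel, and 14.6 and 13.4 CPM against 26.2 and 23.4 CPM in ear. The SAM, with 121 to 137 CPM over its 4 libraries, resembled the leaf in level. Of 24 jasmonate and lipoxygenase genes, 15 stood at the sibling level. The leaf criterion was met by 2 of them, the tassel criterion by 8 and the ear criterion by 4, and lox11 alone met all 3.

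bx2 (GRMZM2G085661) encodes a cytochrome P450 of the benzoxazinoid pathway, which makes defence compounds of maize seedlings. It was abundant in leaf, at 283 and 285 CPM in homozygotes, 251 and 193 CPM in heterozygotes and 139 and 185 CPM in wild type. Tassels held 9.56, 6.65 and 9.98 CPM in kn1-e1 and 28.6, 30.0 and 24.5 CPM in siblings. Ear levels were 1.5 and 1.13 CPM against 1.87 and 2.78 CPM, close to the required minimum. The table named 8 bx genes, a list also drawn up afterwards, of which 6 stood at the sibling level. All 6 met the leaf criterion and 4 the tassel criterion, but 1 met the ear criterion and 3 were higher in kn1-e1 ears by the mirrored criterion. bx1 (GRMZM2G085381), the first gene of the pathway, fell from 8.71 to 1.10 CPM in tassel but had a sibling ear mean of 0.137 CPM and so was no member.

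CCD8 (GRMZM2G446858), a carotenoid cleavage dioxygenase of strigolactone synthesis, was a low transcript. Leaf libraries had 1.87 and 1.8 CPM in homozygotes, 1.66 and 1.45 CPM in heterozygotes and 0.974 and 1.22 CPM in wild type. Tassels had 2.09, 2.44 and 1.28 CPM in kn1-e1 against 5.99, 4.49 and 4.10 CPM, and ears 3.62 and 3.65 CPM against 4.58 and 5.97 CPM. All 3 leaf genotypes were separate in CPM, in the order of Kn1-N dose, but on few reads. Counts were 31 and 37 in homozygotes, 34 and 30 in heterozygotes and 19 and 23 in wild type. Heterozygous against wild-type leaf had an adjusted p of 0.76 by edgeR.

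bHLH35 (GRMZM2G173372), a basic helix-loop-helix transcription factor gene, and SRS7 (GRMZM2G135783), of a family that in Arabidopsis activates auxin synthesis genes, were transcripts of the primordia. bHLH35 held 35.4, 35.8 and 38.2 CPM in kn1-e1 against 52.3, 56.2 and 60.6 CPM in sibling tassel, and 11.3 CPM in each kn1-e1 ear library against 26.8 and 29.2 CPM. Its leaf levels lay between 0.877 and 1.60 CPM over all 6 libraries. SRS7 held 23.4, 21 and 22.7 CPM against 29.4, 27.9 and 27.0 CPM in tassel and 26.4 and 29.5 CPM against 40.3 and 38.9 CPM in ear. In leaf SRS7 had 1.27 and 1.21 CPM in homozygotes and 0.820 and 0.846 CPM in wild type, while heterozygotes were at or below wild type (0.828 and 0.435 CPM). For both genes the leaf values were a small fraction of those in primordia.

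HB127 (GRMZM2G119999), a homeobox gene, had 2.60 and 2.09 CPM in homozygous leaf, 0.877 and 0.871 CPM in heterozygous leaf and 0.667 and 0.793 CPM in wild type. Tassels had 1.3, 1.76 and 1.43 CPM in kn1-e1 and 2.43, 3.17 and 2.79 CPM in siblings, and ears 1.83 and 0.925 CPM against 2.29 and 2.62 CPM. Homozygous leaf thus came near the level of sibling primordia. Of 20 other homeobox genes at the sibling level (mostly HD-ZIP and related, with the KNOX gene gnarley1 counted here too), 7 met the leaf, 4 the tassel and 3 the ear criterion, and HB127 alone met all 3.

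**Figure D3:**
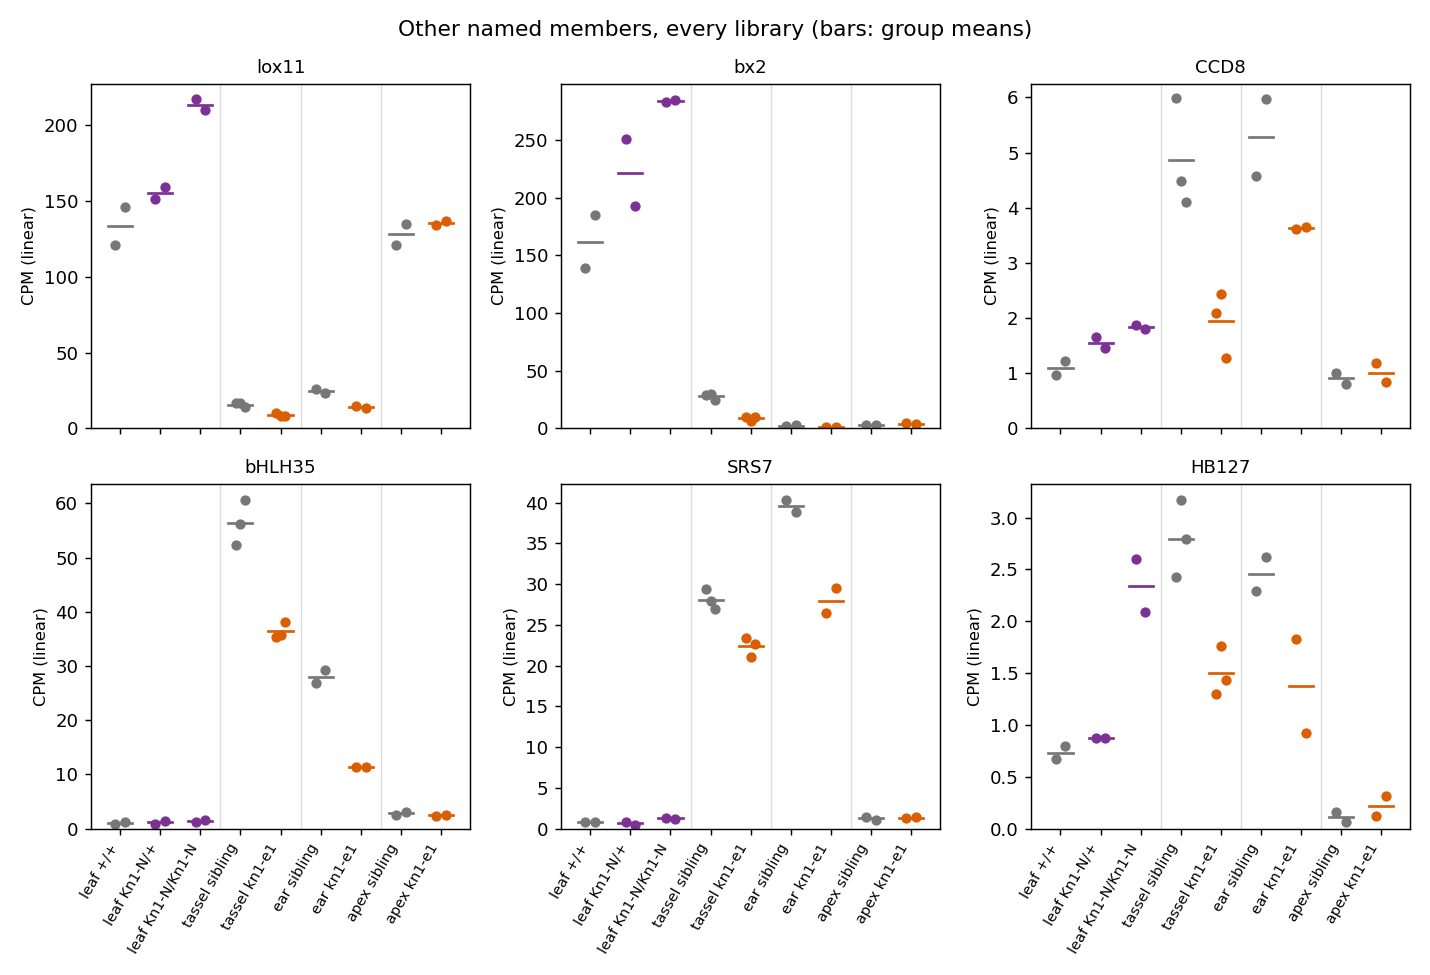
CPM (linear axes, each gene on its own scale) of lox11, bx2, CCD8, bHLH35, SRS7 and HB127 in every library (points) with group means (bars); colours as grey for wild type or siblings, purple for Kn1-N leaf and orange for kn1-e1, and "apex" is the SAM. lox11 and bx2 were highest in leaf, bHLH35 and SRS7 in primordia.

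The remaining 31 genes had no name, and 3 of them were singled out after their values were seen, each for a large fall in primordia. They are not simply the 3 largest falls. Other unnamed genes also fell far, such as GRMZM2G155525 (ratio 0.323 in tassel and 0.461 in ear) and GRMZM2G070500 (0.54 and 0.486). GRMZM2G021786 held 0.676 and 0.668 CPM in kn1-e1 ear against 3.98 and 4.01 CPM in siblings, the lowest ear ratio of the 42 (0.261). In tassel it held 1.92, 4.26 and 2.35 CPM against 5.56, 6.49 and 5.52 CPM, and in leaf 1.39 and 0.971 CPM in homozygotes, 1.31 and 1.06 CPM in heterozygotes and 0.41 and 0.581 CPM in wild type. Its heterozygous leaf libraries lay as high as the homozygous ones.

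GRMZM2G060050 had the lowest tassel ratio (0.269), with 0.339, 1.02 and 1.02 CPM in kn1-e1 against 4.64, 4.22 and 4.1 CPM in siblings. In ear it held 0.772 and 0.566 CPM against 2.95 and 3.19 CPM. Its leaf reads were as few as those of yab9, with 0 counts in wild type and 0.363 and 0.146 CPM in homozygotes.

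GRMZM2G127350 combined a high level with a large fall, from 193, 173 and 147 to 81.1, 106 and 88.1 CPM in tassel and from 93.9 and 104 to 47.5 and 59.8 CPM in ear. Leaf libraries held 83.4 and 51.8 CPM in homozygotes, 45.1 and 45.5 CPM in heterozygotes and 31.9 and 41.6 CPM in wild type. In the SAM it was scarce, at 9.25 and 10 CPM in kn1-e1 and 6.39 and 6.66 CPM in siblings, the reverse order to that in primordia.

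With ratios of at least 1.5 in leaf and at most 0.67 in both primordia, 11 of the 42 genes were left. They were yab14, lox11, bx2, HB127, GRMZM2G157727, the 3 genes just described, GRMZM2G022934, GRMZM2G070500 and GRMZM2G155525. yabby15 was not among them because its falls in primordia were small.

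In wild-type and sibling tissues, the mean of the 42 genes was highest in tassel for 15, in ear for 11, in leaf for 8 and in SAM for 8. Wild-type leaf was below both sibling primordia for 28 genes and above both for 10. In homozygous Kn1-N leaf 24 genes still lay below both sibling primordia, and in kn1-e1 tassel 15 lay below wild-type leaf. Of these 15, 12 lay below it in sibling tassel too, and 3 (yab10, GRMZM2G110195 and GRMZM2G150859) did not. Sibling tassel exceeded sibling ear at least 2-fold for 8 genes and the reverse held for 6. The genes therefore do not share a tissue of highest level.

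The SAM was the one tissue in which both groups had no part in the choice, and in it 1 of the 39 genes that could be tested passed. Counts of the 4 SAM libraries were fitted with edgeR's quasi-likelihood test, and p-values were adjusted over all genes tested (Benjamini-Hochberg, threshold 0.05). kn1 itself fell by 1.66 ± 0.13 (SE) on the log2 scale there (adjusted p = 3.1e-05). Of the 39 members that passed the filter on low counts, 1 fell (2.56%) and 0 rose, beside 0.116% and 0.0434% of all 20747 genes tested (0.159% in either direction). At an unadjusted p under 0.05 there were 2 lower and 4 higher, beside 2.72% and 2.01% of all genes, and DESeq2 called the same gene lower and 0 higher. HB127, GRMZM2G070500 and GRMZM2G110195 were too low to be tested.

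The gene that fell, GRMZM2G157727, is not annotated in the reference table. Its SAM level was 8.43 and 6.30 CPM in kn1-e1 and 37.7 and 45.4 CPM in siblings, with a log2 fold change of -2.48 ± 0.15 and adjusted p = 6.2e-06 by edgeR. In the contrasts that chose it, it went from 32.0 and 30.5 CPM in wild-type to 54.5 and 52.6 CPM in homozygous leaf. It went from 160, 168 and 165 CPM in sibling to 76.5, 57.4 and 67.9 CPM in kn1-e1 tassel, and from 112 and 97.5 to 30.5 and 31.6 CPM in ear. No library of one genotype reached a library of the other in any tissue. Its position relative to kn1 was not determined here.

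The other 38 tested members had no call in the SAM, and their differences centred near 0. The median log2 fold change of the 39 was 0.09 (quartiles -0.03 and 0.21), beside -0.003 (quartiles -0.11 and 0.10) over all genes tested. Of the 39, 13 were negative and 26 positive. For 20 of the 39, the approximate 95% interval of the log2 fold change lay wholly above -0.27. That value is the log2 of the ratio 0.83 that the rule asked for in tassel and ear. For 17 the interval held that value, and for GRMZM2G157727 and GRMZM2G060050 it lay wholly below. Groups did not overlap for 2 of the 39 downward (5.13%) and for 11 upward (28.2%), beside 19.4% and 14.6% of all genes tested.

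The YABBY genes kept their level in the SAM within narrow intervals. yabby15 held 130 and 125 CPM in kn1-e1 and 119 and 120 CPM in siblings, a log2 fold change of 0.11 ± 0.11 (95% interval -0.13 to 0.35; adjusted p = 0.96 by edgeR). yab10 held 59.7 and 57.6 CPM against 58.2 and 59.5 CPM (0.01, interval -0.21 to 0.23). yab9 held 40.2 and 37.6 CPM against 38.7 and 39.6 CPM (0.01, interval -0.22 to 0.23). yab14 held 43.7 and 41.4 CPM against 39.5 and 46.7 CPM (interval -0.25 to 0.24), and DL1 27.6 and 25 CPM against 28.1 and 25.3 CPM (-0.01, interval -0.25 to 0.24). With library totals as the only scaling, yab9 and yab10 changed sign, at -0.01 each. All 5 intervals stayed above -0.27, and all 9 YABBY genes were tested with 0 calls by edgeR or DESeq2 and 0 at an unadjusted p under 0.05. Among the wild-type and sibling tissues, yabby15, yab10 and DL1 had their highest mean in the SAM.

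lox11 (0.10, interval -0.15 to 0.35), bx2 (0.52, interval 0.01 to 1.03), CCD8 (0.15, interval -0.68 to 0.98), bHLH35 (-0.17, interval -0.72 to 0.38) and SRS7 (0.10, interval -0.62 to 0.83) had no call in the SAM. For CCD8, bHLH35 and SRS7 the intervals are wide, at 0.809 to 3.11 CPM per library. bx2 had 4.48 and 3.46 CPM in kn1-e1 and 2.96 and 2.61 CPM in siblings. Of 7 bx genes tested, 1 rose by edgeR: BX3 (GRMZM2G167549) went from 58.9 to 92.5 CPM (log2 fold change 0.67, adjusted p = 0.026).

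GRMZM2G060050, described above, had the next lowest SAM fold change but did not pass. It had 7 and 0 counts in kn1-e1 and 24 and 13 counts in siblings (log2 fold change -2.37 ± 0.71, adjusted p = 0.69 by edgeR). Its call depended on the fit. By edgeR it passed without a filter on low counts (adjusted p = 0.041) and with replicate number as a block (0.049). It also passed with a crossed replicate block, added after seeing the data (0.035). It did not pass on library totals (0.74), with DESeq2 (1.0) or in the fit of 14 meristem libraries (0.21). The log2 fold change was -1.31 without kn1-e1 library 2 (adjusted p = 1.0) and -7.25 without library 1 (0.0058), where the remaining mutant library has 0 counts and the fitted value is no bound.

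One sibling SAM library decided how many genes passed. Without sibling library 2, edgeR called 1745 genes in place of 33 (kn1 left out of both), 3.46% lower and 4.79% higher. Of 40 members tested, 2 then fell (GRMZM2G157727 and GRMZM2G060050) and 4 rose (GRMZM2G043075, GRMZM2G054013, GRMZM2G079080 and GRMZM2G127350), with the single remaining sibling library assumed to vary like the mutants. Without sibling library 1 it called 109 genes, and without kn1-e1 library 1 or 2 it called 47 and 54. Without kn1-e1 library 1 the members called were GRMZM2G157727 and GRMZM2G060050. Heat shock genes moved with genotype in the SAM: 5 of 12 tested were called lower by edgeR (4 by DESeq2), 0 higher. The summed level of the 15 was 3250 to 3300 CPM in kn1-e1 against 4370 to 4440 CPM in siblings. Of 8 heat shock genes at the sibling level, 5 met the leaf criterion and 1 the mirrored one, beside 8.96% of all genes for the former. Their leaf sum was 3790 to 3810 CPM in homozygotes against 3460 to 3590 CPM in wild type, over all 15. In kn1-e1 ears 3 of the 8 were higher and 0 lower, and in tassels 1 was higher and 0 lower. The part of heat shock genes in the members' values was not tested.

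**Figure D4:**
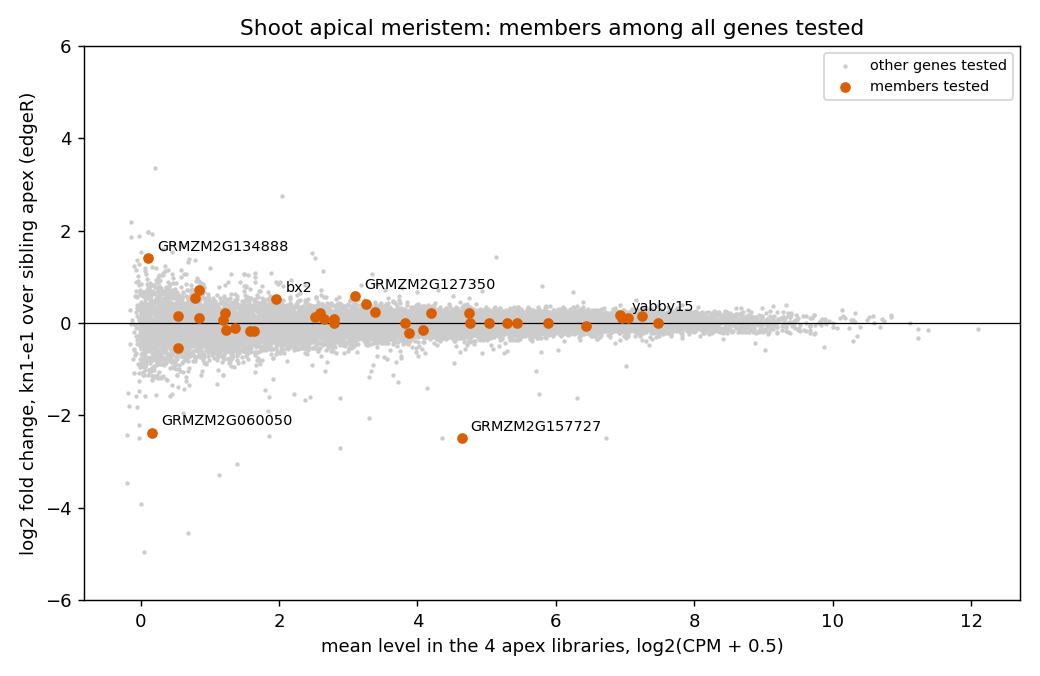
Log2 fold change in the SAM (kn1-e1 over sibling, edgeR) against the mean level of the 4 libraries, log2(CPM + 0.5), for all genes tested except kn1 (grey) and the 39 members tested (orange). Most members lie near 0. GRMZM2G157727 (-2.48) and GRMZM2G060050 (-2.37) lie lowest, and 6 members lie above 0.26, among them GRMZM2G134888 (1.4), GRMZM2G127350 (0.58) and bx2 (0.52). GRMZM2G060050 (0 to 24) and GRMZM2G134888 (5 to 16) had few counts per library.

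Genes that were lower in both primordia were read in the SAM in the same way whatever their leaf value. Among those that were lower in homozygous leaf, 4 of 87 tested were called lower in the SAM (4.60%), and among those that met neither leaf criterion, 2 of 126 (1.59%). With 1 of 39 (2.56%), the share among the members lay between these. Over all genes tested the share called lower was 0.116%. With so few genes called, the order of the shares cannot be told.

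In heterozygous leaf most members stood between wild type and homozygote. The heterozygous mean lay between the others for 37 of 42 genes (88.1%), beside 88.4% of the 1615 genes that met the leaf criterion. For 16 genes (38.1%) both heterozygous libraries lay between all libraries of the others, beside 31.4%. The heterozygous gain over wild type was a median 38.5% of the homozygous gain (quartiles 23 and 59.1%), beside 35.2% for the genes meeting the leaf criterion. The intermediate level is thus about as common among members as among all genes higher in homozygous leaf. The heterozygote was compared with the same wild-type libraries that helped choose the members, so these values are a description.

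In the edgeR fit of the 6 leaf libraries, 37 members were tested in heterozygous against wild-type leaf. Of these 4 rose (10.8%) and 0 fell, beside 0.122% and 0.0181% of all 22070 genes tested (0.14% in either direction). At an unadjusted p under 0.05, 12 were higher and 0 lower, beside 3.4% and 3.67% of all genes, and DESeq2 called the same 4 higher and 0 lower. The 4 were yabby15 (log2 fold change 0.91), GRMZM2G113332 (1.01 ± 0.11, adjusted p = 0.0016), GRMZM2G157727 (0.59, adjusted p = 0.019) and GRMZM2G112210 (0.40, adjusted p = 0.019). The median over the 37 was 0.28, beside 0.002 over all genes tested. Groups did not overlap for 19 of the 37 upward (51.4%) and for 1 downward (2.7%), beside 15.8% and 18.1% of all genes tested. These values share the wild-type libraries with the rule, and the fit also drew on its homozygous libraries. They support nothing beyond the rule.

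GRMZM2G113332 had the largest leaf ratio of the 42 genes. Its levels were 57.6 and 62.5 CPM in homozygotes, 32.3 and 30.7 CPM in heterozygotes and 13.4 and 18.2 CPM in wild type. In primordia the fall was small, from 150, 146 and 165 to 112, 104 and 132 CPM in tassel and from 171 and 183 to 145 and 129 CPM in ear. The SAM libraries overlapped, at 80.1 and 87.8 CPM in kn1-e1 and 98.1 and 78.5 CPM in siblings.

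GRMZM2G112210 was also high in leaf, at 253 and 265 CPM in homozygotes, 183 and 199 CPM in heterozygotes and 145 and 147 CPM in wild type. Tassels went from 92.9, 90.4 and 87.5 CPM to 54.5, 41.2 and 55.6 CPM, and ears from 10.3 and 12.1 CPM to 8.25 and 6.68 CPM. Its leaf genotypes formed separate steps like those of yabby15.

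The calls of yabby15 and GRMZM2G113332 in heterozygous leaf held without either wild-type library. Those of GRMZM2G157727 and GRMZM2G112210 did not: without wild-type library 1 or 2 the adjusted p was 0.31 and 0.32 for the first and 0.32 and 0.23 for the second. Their log2 fold changes stayed close, at 0.62 and 0.55 for the first and 0.39 and 0.41 for the second. The wild-type library that remained had also helped choose the members, as had both homozygous libraries in the fit. A call that held is therefore not free of the choice. GRMZM2G112210 also lost its call without homozygous library 1 or 2 (adjusted p = 0.07 and 0.071). Without wild-type library 1 or 2, 7 and 12 genes were called over the whole table in place of 31, and without heterozygous library 1 there were 627. In that last fit 6 members were called, with GRMZM2G054013 and GRMZM2G079080 added.

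**Figure D5:**
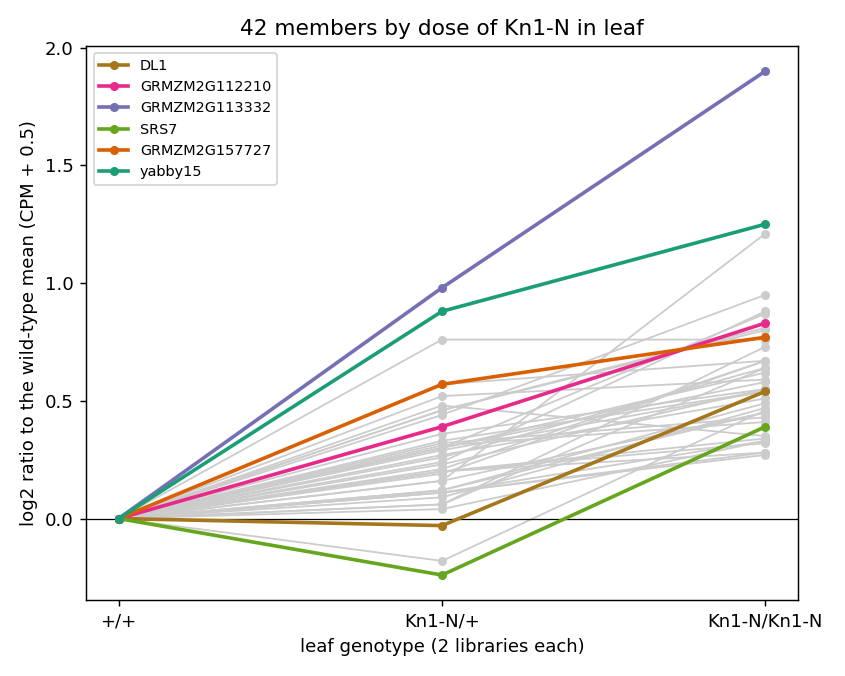
Log2 ratio to the wild-type leaf mean (CPM + 0.5) of the 42 genes by leaf genotype (2 libraries each); coloured lines name 6 genes, among them the 4 called in heterozygotes. All lines end above 0 in homozygotes because the rule asked for it, and 39 of 42 are above 0 in heterozygotes; SRS7, DL1 and GRMZM2G035531 are not.

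Of the 32 matched members, 7 lie on the chromosome that carries kn1 in the reference order. The share of all matched genes on that chromosome was not computed, so this count cannot be read as high or low. The nearest to kn1 was GRMZM2G123714, with 196 annotated genes between them, and yab10 had 1255 between.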

How the data were processed

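RNA was isolated with Trizol, and libraries were made from 1 ug of it with the Illumina TruSeq kit (13 amplification cycles), per the labels' protocols. The submitters' processing notes name CASAVA 1.8, TopHat 1.2.0, HTSeq and DESeq 1.4.1. The genome build and the strand setting of the counting are not given in the sources used here; antisense or overlapping genes and near-identical copies may share reads. The authors deposited raw counts of 39656 genes in 20 libraries. CPM, ratios and all tests were computed from these counts. Gene names came from the RefSeq table of another assembly, which matched 47.3% of the IDs, so no coordinates are given.

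The 4 SAM libraries, and separately the 6 leaf libraries, were fitted with edgeR 4.0.16 (R 4.3.3) on TMM scaling after filterByExpr (count 10, total 15), with Benjamini-Hochberg adjustment over all genes. DESeq2 1.42.0, other scalings, no filter, a replicate block and leaving out libraries were alternatives. The SE was taken as the size of the edgeR log2 fold change divided by the square root of its F statistic. Intervals of 95% used this SE and a t quantile, so both are approximate. The contrasts that chose the members were given no test. On simulated counts of 20748 genes the SAM fit recovered 68% of 1.5-fold and 97% of 2-fold changes. It made 5 false calls. On 22071 genes the leaf fit recovered 85% and 98%, with 15 false calls. The changed genes, 100 per fold, were drawn only from genes above a set mean count. Their spread followed the fitted trend alone, without differences between genes of like level. These shares therefore do not apply to members with few SAM counts, such as GRMZM2G060050, GRMZM2G134888, CCD8 and SRS7.

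The members and the gene lists were chosen with earlier results of these data known. The text names all named members, the members called, those nearest the thresholds, and some others said to be singled out. Groups had 2 or 3 biological replicates (the design text's term), and those compared in the main fits had 2 each. The p-values measure the spread between these, which the fits estimate partly from other genes. Promoter motifs were not analysed here.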

Additional observations from a re-analysis of the deposited data

Results flagged for a closer look

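In the SAM, 11 members had both kn1-e1 libraries above both sibling libraries, the opposite of their direction in kn1-e1 tassel and ear. The log2 fold changes (kn1-e1 over sibling, edgeR) were 1.4 for GRMZM2G134888, 0.72 for GRMZM2G021786, 0.58 for GRMZM2G127350, 0.55 for GRMZM2G150906 and 0.52 for bx2. They were 0.41 for GRMZM2G043075, 0.25 for GRMZM2G152143, 0.22 for GRMZM2G001421, 0.21 for GRMZM2G049681, 0.15 for GRMZM2G112210 and 0.11 for yabby15. The largest values rest on few counts. GRMZM2G134888 had 14 and 16 counts in kn1-e1 and 5 and 6 in siblings, and GRMZM2G021786 had 33 and 24 against 19 and 15. The adjusted p of each of the 11 members was at least 0.50, and the difference from tassel and ear was not tested. The direction in tassel and ear was fixed by the choice of members. Among all genes tested, 14.6% had groups that did not overlap in this direction.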

How the results depend on the processing

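With 2 libraries per group, one library can set a count. In the SAM, 33 genes and 1 member were called; without a filter on low counts these were 110 and 2. Leaving out one library gave 47 to 1745 genes, 1 to 2 members lower and 0 to 4 higher, and a member median of 0.03 to 0.11. In heterozygous leaf the same gave 7 to 627 genes, 2 to 6 members higher and a median of 0.12 to 0.40.

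Same-numbered libraries did not clearly deviate together (correlation -0.184 in SAM, 0.078 in leaf). With 2 libraries per group, the negative SAM value means that kn1-e1 library 1 deviated weakly with sibling library 2. Whether libraries were paired was not determined, and tassel and ear were not checked. With the replicate block, 71 genes and 2 members were called lower or higher in SAM, both members lower, and 45 genes and 4 members in heterozygous leaf. A crossed replicate block, added after seeing the data, gave 104 genes and 2 members in SAM.

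The rule found 11 genes at ratios of 1.5 and 0.67, 24 at a sibling mean of 10 CPM, and 36 to 55 with a library left out. With TMM factors it found 55, and with 0.1 CPM added 46.

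Members near 0 changed sign in the SAM: on library totals yab9 (-0.01) and yab10 (-0.006), in a fit of 14 meristem libraries yab14 (0.002) and with crossed blocks yab14 (0.0). With a library left out, the ranges were -0.054 to 0.064 for yab9, -0.028 to 0.047 for yab10, -0.128 to 0.132 for yab14, -0.091 to 0.075 for DL1, -0.114 to 0.395 for CCD8, -0.075 to 0.338 for SRS7, -0.34 to 0.0 for bHLH35, -0.003 to 0.37 for GRMZM2G079080 and -0.198 to 0.107 for GRMZM2G113332. In heterozygous leaf they were -0.038 to 0.353 for GRMZM2G049681, -0.107 to 0.58 for GRMZM2G054013, -0.017 to 0.426 for GRMZM2G150906, -0.322 to 0.507 for GRMZM2G152143 and -0.245 to 0.492 for bHLH35. yab9 also reached -0.019, yab10 -0.012, yab14 0.046, DL1 0.064 and GRMZM2G152143 -0.017 (heterozygous leaf). The cause was not tested.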
